A study of Mus musculus with 2 samples.

Results

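The plakin cytolinkers and the giant scaffold AHNAK were examined in RNA that came down with NAT10 from mouse hearts. The genes were chosen by name: desmoplakin (Dsp), dystonin (Dst), microtubule-actin crosslinking factor 1 (Macf1), plectin (Plec) and Ahnak. Every summit that the authors' table placed in 1 of these 5 genes was taken once. This gave 105 of the 2020 summits in the table, or 5.20%. A summit is the single base where a called peak of signal from immunoprecipitated RNA is highest. The genes were picked with the table's summits known, so that having summits is how they were chosen and not a finding.

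NAT10 is the acetyltransferase that makes N4-acetylcytidine in RNA. The RIP library (RNA immunoprecipitation) held RNA recovered with anti-FLAG beads from heart lysate, and the Input library held RNA from 10% of the same lysate. Both came from wild-type mice given AAV9-cTnT-FLAG-NAT10 under the skin at day 1 after birth and killed 20 days after the injection. AAV9 is a viral vector, and the cTnT promoter is active in heart muscle cells, so the tagged protein was directed to those cells while the lysate came from whole heart. Both libraries carried the construct, and no library from hearts without it was analysed here. RNA held by the beads and RNA bound to NAT10 therefore cannot be told apart. With 1 RIP and 1 Input library there was no replicate, no test was possible, and every value describes these 2 libraries. The labels do not say how many hearts went into each.

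Plakins tie the cytoskeleton together. Desmoplakin anchors desmin filaments at the desmosomes of the intercalated disc, and plectin links intermediate filaments to Z-discs, costameres and mitochondria. Dystonin and MACF1 are spectraplakins, which join actin to microtubules through a long rod of spectrin repeats. AHNAK is a very large scaffold protein found under the plasma membrane, where it has been tied to the L-type calcium channel in heart muscle. All of them are encoded by very long mRNAs, and several have exons of unusual length.

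The sequences of the exons that held most summits are shown first, because their repeats and their likeness bear on where reads can be placed. They are coding sequence of GENCODE M39 transcripts, located by exon number and position in the transcript, and they are not the bases under a summit. The last exon of Ahnak (chromosome 19, plus strand) encodes tandem repeats. Shifted against itself, its 16623 coding bases matched best at 384 bases, or 128 codons, with 46.7% identical bases, against a median of 24.8% over all shifts between 100 and 1200 bases. The 60 bases that were most alike over 4 consecutive copies at that shift are given here, with capitals for bases that differ from copy 1.
Ahnak copy 1, transcript bases 10360 to 10419: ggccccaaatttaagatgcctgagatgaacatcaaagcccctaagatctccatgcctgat
Ahnak copy 2, transcript bases 10744 to 10803: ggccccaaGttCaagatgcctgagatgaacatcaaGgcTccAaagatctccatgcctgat
Ahnak copy 3, transcript bases 11128 to 11187: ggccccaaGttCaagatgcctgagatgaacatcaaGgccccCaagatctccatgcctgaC
Ahnak copy 4, transcript bases 11512 to 11571: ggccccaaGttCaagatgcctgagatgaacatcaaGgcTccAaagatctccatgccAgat

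Copies 2, 3 and 4 shared 55, 55 and 54 of the 60 bases with copy 1. Some repeats were identical over a whole read of 150 bases. Of the 18288 windows of that length in the Ahnak transcript, 1013 (5.54%) occurred more than once, with up to 3 copies. The first window found with 3 copies starts at transcript bases 4471, 8590 and 11476.
Ahnak, 150 bases present 3 times: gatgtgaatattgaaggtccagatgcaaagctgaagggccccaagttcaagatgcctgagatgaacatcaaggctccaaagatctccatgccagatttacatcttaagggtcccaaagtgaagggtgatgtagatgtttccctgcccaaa

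Taken alone, a read that fills such a window fits more than 1 place. Reads were sequenced as pairs, and the other read of a pair was not considered. Whether any Ahnak summit lay in such a window was not tested. None of the 150-base windows of the Dst, Dsp, Macf1 and Plec transcripts occurred more than once in its own transcript. No 30-base word was shared between any pair of the 5 transcripts.

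Dst (chromosome 1, plus strand) and Macf1 (chromosome 4, minus strand) are paralogs with matching exon plans. The transcripts whose exon numbers matched the table had 98 exons each, and 76 exons had the same length under the same number. Exon 36 was the longest in both, with 5292 bases in Dst and 5331 in Macf1. Aligned end to end, the pair was identical at 60.0% of 4748 aligned bases, or 53.5% of the longer exon. The alignment places gaps so as to raise the number of matches, and no level for unrelated sequence was taken. The most alike stretch of 120 bases without a gap had 75 identical bases, and capitals mark the bases that differ.
Dst exon 36, transcript bases 5275 to 5394: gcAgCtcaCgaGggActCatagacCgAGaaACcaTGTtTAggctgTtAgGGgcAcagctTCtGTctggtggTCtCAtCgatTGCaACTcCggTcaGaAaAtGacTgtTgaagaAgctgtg
Macf1 exon 36, transcript bases 5437 to 5556: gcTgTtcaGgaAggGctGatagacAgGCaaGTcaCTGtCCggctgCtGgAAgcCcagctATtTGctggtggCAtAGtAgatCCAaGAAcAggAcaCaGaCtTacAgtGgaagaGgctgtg

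Ahnak had 30 summits, Dst 22, Dsp and Plec 18 each, and Macf1 17. All 5 genes thus had a summit. In the whole annotation 4.22% of 21594 protein-coding genes had one, and among the 708 genes with a transcript of at least 9632 bases, the length of that of Dsp, the share was 15.1%. Among the 912 genes with a summit, 5.48% had 5 or more. The genes here were named for being in the table, so nothing is read from those shares. Per 1000 bases of the longest coding transcript the densities were 1.87 summits for Dsp, 1.63 for Ahnak, 1.16 for Plec, 0.946 for Dst and 0.722 for Macf1. Their median was 1.16, against 0.261 over the other 907 genes with a summit and 0.110 over the 102 of those with a transcript at least as long as that of Dsp. The genes were chosen with their summits known, so nothing is read from that difference either. The densities also count summits in introns, 4 in Macf1, 2 in Dst and 2 in Plec. Those 102 genes had a median of 2 summits, and the plot shows summits against transcript length.

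**Figure D1:**
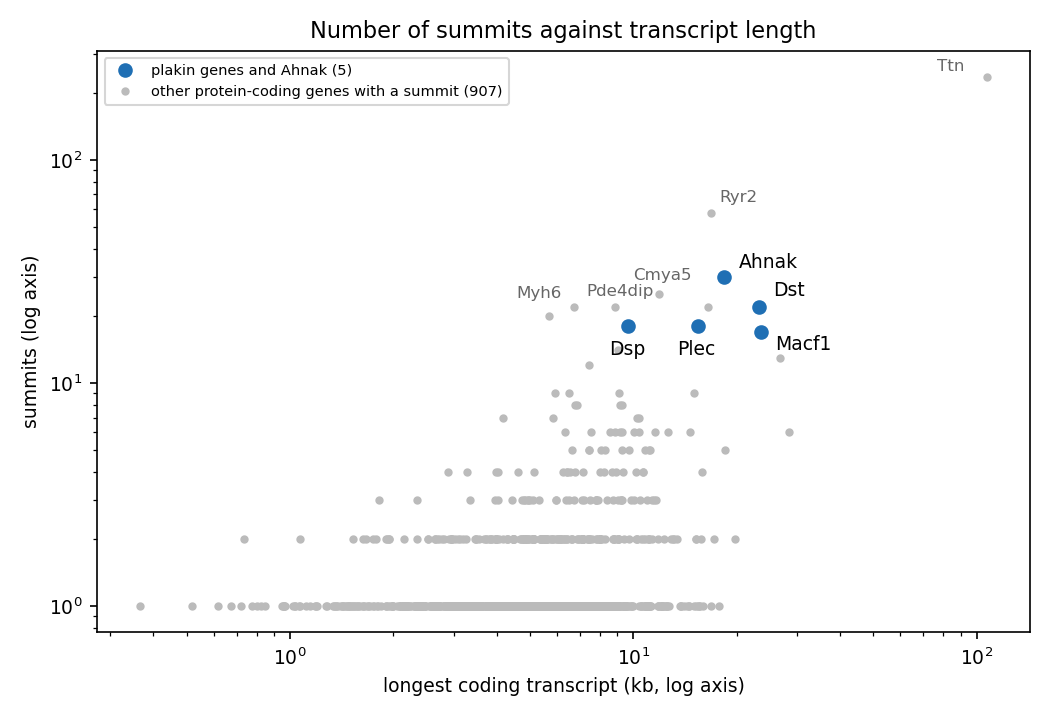
Number of summits (log axis) against the length of the longest coding transcript in kb (log axis) for every protein-coding gene with a summit. Blue points are the 5 plakin and Ahnak genes, with 17 to 30 summits, and grey points are the other 907 genes, of which the 5 used for comparison are named.

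The score of a summit is the authors' own value for it, read as a -log10 p-value or q-value, although the column lost its header and the table does not settle which of them it is. Such a score depends on abundance as well as on enrichment, so scores of different genes are no measure of binding strength. The median over the 105 summits was 10.5, against 12.5 over all 2020. Of the 105, 45 (42.9%) reached the median of the whole table and 14 (13.3%) reached its upper quartile of 28.3. By gene, the median was 14.9 in Ahnak, 14.2 in Dsp, 9.75 in Dst, 9.73 in Plec and 4.35 in Macf1. Ahnak and Dsp lay highest and close together, Dst and Plec followed, and Macf1 was lowest. No Macf1 summit reached the median of the table, while 20 of 30 did in Ahnak, 12 of 18 in Dsp, 8 of 22 in Dst and 5 of 18 in Plec. Thus 4 of the 5 genes had a summit at that level, against 2.29% of all protein-coding genes, from which nothing is read since the summits chose the genes. The weakest was a Dst summit in exon 57 with 1.34, next to the 1.32 at which the whole table began. The next were Ahnak with 1.47 in its last exon, Macf1 with 1.48 in intron 58 and Plec with 1.68 in intron 12, and summits below the table's lowest score are not analysed here.

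**Figure D2:**
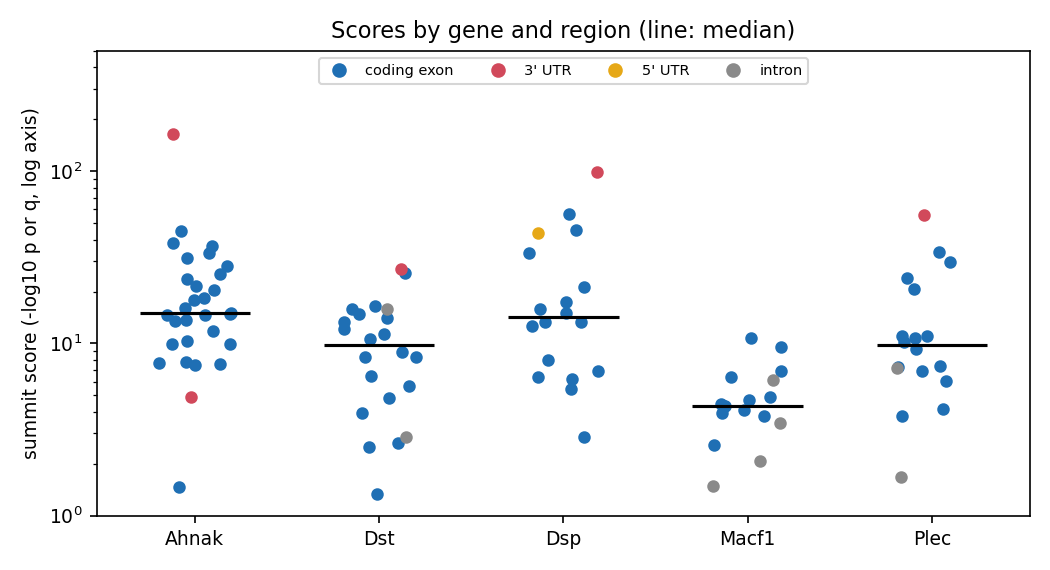
Score of each summit (-log10 p or q, log axis) in the 5 genes, coloured by the region the table gave, with a line at each gene's median. The highest point is a 3' UTR summit in Ahnak, Dst, Dsp and Plec, and all Macf1 points lie at or below 10.7.

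By region, 91 of the 105 summits lay in coding exons (86.7%, exact 95% interval 78.6 to 92.5), 5 in a 3' UTR, 1 in a 5' UTR and 8 in introns. Among the other 1798 summits placed in a named gene, 51.4% lay in coding exons (49.1 to 53.8) and 40.3% in 3' UTRs, or 44.6% and 46.2% without titin (Ttn), the giant sarcomere gene. Over all 2020 summits the coding exon share was 50.5%. Every exon outside a UTR was counted as a coding exon, so the shares outside these 5 genes can include exons of non-coding genes. The intervals did not overlap, but they cover counting error only and take summits of one gene as independent. The difference was not tested. It is not particular to these genes, because the 5 other genes with most summits also had most of theirs in coding exons. The counts were 228 of 235 in Ttn, 52 of 58 in Ryr2 and 24 of 25 in Cmya5. They were 19 of 22 in Myh6 and 21 of 22 in Pde4dip.

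Ahnak (ENSMUSG00000069833) encodes nearly all of its protein in its last exon, and 27 of its 30 summits lay in the coding part of that exon (90.0%, 73.5 to 97.9). Positions here are those of GRCm38. The summits ran over 16158 bases, between 9002130 and 9018288 on chromosome 19, of an exon that is 17498 bases long and makes up 94.9% of the transcript. Neighbours in that exon were 316 to 1490 bases apart, and the widest gap lay between 9006538 and 9008028. Most belonged to 2 broad peaks, of 8 summits over 4408 bases and of 12 summits over 6900 bases. Scores in the first of these ranged between 9.90 and 36.9, and in the second between 13.6 and 44.9. Farther along, a single summit had 7.85, a peak of 4 summits had 7.47 to 18.0, and the last 2 coding summits had 1.47 and 11.8. One more summit lay in exon 3, 157 bases long, at 9000154 with a score of 7.59.

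The 3' UTR of Ahnak held the strongest summit of all 5 genes, 165 at 9018989. The next highest in the gene was 44.9 at 9009975, and the neighbour 386 bases upstream, also in the 3' UTR, had 4.88. The 3' UTR thus held both the highest summit of the gene and one of its lowest.

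Desmoplakin (ENSMUSG00000054889, chromosome 13, plus strand) differed in that its summits were spread over many short exons. They lay in exons 3, 5, 7, 12, 14, 15, 16, 17 and 18 with 1 each, in exon 23 with 4, in the coding part of the last exon with 3, and in each UTR with 1. The 9 short coding exons, of 129 to 227 bases, had scores of 2.85 to 21.2. Exon 23 encodes the coiled-coil rod, and its 4 summits had 15.00 at 38191630, 6.22 at 38192041, 33.5 at 38193033 and 15.7 at 38193415. They spanned 1785 bases. The annotation gives that exon as 2295, 966 or 498 bases in 3 coding transcripts, so that the span could be held by the longest form alone. The last exon encodes the plakin repeats that bind intermediate filaments, and it had summits of 45.7 at 38194922, 56.3 at 38195147 and 6.35 at 38196065.

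Dsp also held the single 5' UTR summit of the 5 genes, with a score of 44.0 at 38151526 in its first exon. The table placed the same base in the last exon of ENSMUSG00000103789, which GENCODE names Gm10129 and puts on the opposite strand. The table gives no strand of reads, so the RNA of the 2 genes cannot be told apart there. It was the only 1 of the 105 summits that overlapped another gene. The highest Dsp summit, 98.7, lay in the 3' UTR at 38198324.

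Plectin (ENSMUSG00000022565, chromosome 15, minus strand) had 8 of its 18 summits in exon 32 (44.4%, 21.5 to 69.2), all in 1 peak. That exon of 3381 bases encodes the central rod. Scores there were between 4.15 and 29.8, the highest at 76179915, and neighbours stood 250 to 602 bases apart. The last exon is longer, 7412 bases or 48.0% of the transcript, but held 4 of 16 exonic summits (exact 95% interval 7.27% to 52.4%). Its 3 coding summits were 11.1 at 76178187, 6.02 at 76177153 and 23.9 at 76176741, near its 5' end. The next summit was 5567 bases farther, in the 3' UTR, so that most of the exon that encodes the plakin repeats had none. Exon 28, of 357 bases, held the second highest score of the gene, 33.9 at 76183695. Exons 15, 17 and 18 had 1 summit each, of 10.2, 6.95 and 3.79. Introns 10 and 12 had 7.19 and 1.68.

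Dystonin (ENSMUSG00000026131) had 11 of its 22 summits in exon 36 (50.0%, 28.2 to 71.8), between 34188161 and 34192892 on chromosome 1. They made up 3 peaks, and their scores ranged between 2.52 and 25.5 with a median of 8.30. Macf1 (ENSMUSG00000028649) had 8 of 17 in its exon 36 (47.1%, 22.98 to 72.2), between 123471274 and 123474564 on chromosome 4, with scores of 2.58 to 10.7 and a median of 4.34. In Dst the exon held 55.0% of exonic summits (31.5 to 76.9) and 22.8% of the transcript's bases. In Macf1 it held 61.5% of exonic summits (31.6 to 86.1) and 22.6% of bases. Neither interval held the share of bases, but the exon was singled out because it had most summits. Both intervals also take summits of the same peak as independent, and the 11 Dst summits made up only 3 peaks. Nothing is therefore read from the comparison with the share of bases. Of coding transcripts longer than 10 kb, 2 of 4 for Dst and 1 of 6 for Macf1 had an exon with exactly the same bounds. Forms of the exon with other bounds were not counted.

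The spectraplakins had summits in the same exons more than once. Of 98 exons each, 9 in Dst and 5 in Macf1 held a summit. Exons 36, 57 and 67 held a summit in both, and together they took 14 of 20 exonic Dst summits and 11 of 13 exonic Macf1 summits. They were picked for holding summits in both, so nothing is read from those counts. They make up 22.8%, 6.33% and 0.942% of the transcript's bases in Dst. In Macf1 they make up 22.6%, 6.25% and 0.930%. Exon 57 is 1472 bases long in each gene and had 2 summits in each, of 1.34 and 15.8 in Dst and of 4.12 and 9.56 in Macf1. Exon 67 is 219 bases long in each and had 1 summit in each, of 11.4 in Dst and 6.89 in Macf1. The aligned bases of exons 57 and 67 were 60.2% and 60.7% identical between the genes, again without a level for unrelated sequence. Dst had further summits in exons 42, 43, 44, 63 and 87, of 13.3, 16.4, 10.5, 14.9 and 6.502, and Macf1 in exons 14 and 70, of 4.72 and 4.88. No test was made of this overlap.

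Introns held 8 summits, 4 of them in Macf1, 2 in Dst and 2 in Plec, and none in Ahnak or Dsp. The Macf1 summits scored 2.07 in intron 11, 6.16 and 3.46 in intron 57 and 1.48 in intron 58. Those of Dst scored 15.7 in intron 17 and 2.85 in intron 21. The table numbers the exons of 1 transcript per gene, and these genes have 16 annotated coding transcripts for Macf1, 17 for Dst and 21 for Plec. An intron of that model can be an exon of another, and which of these applies was not tested.

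**Figure D3:**
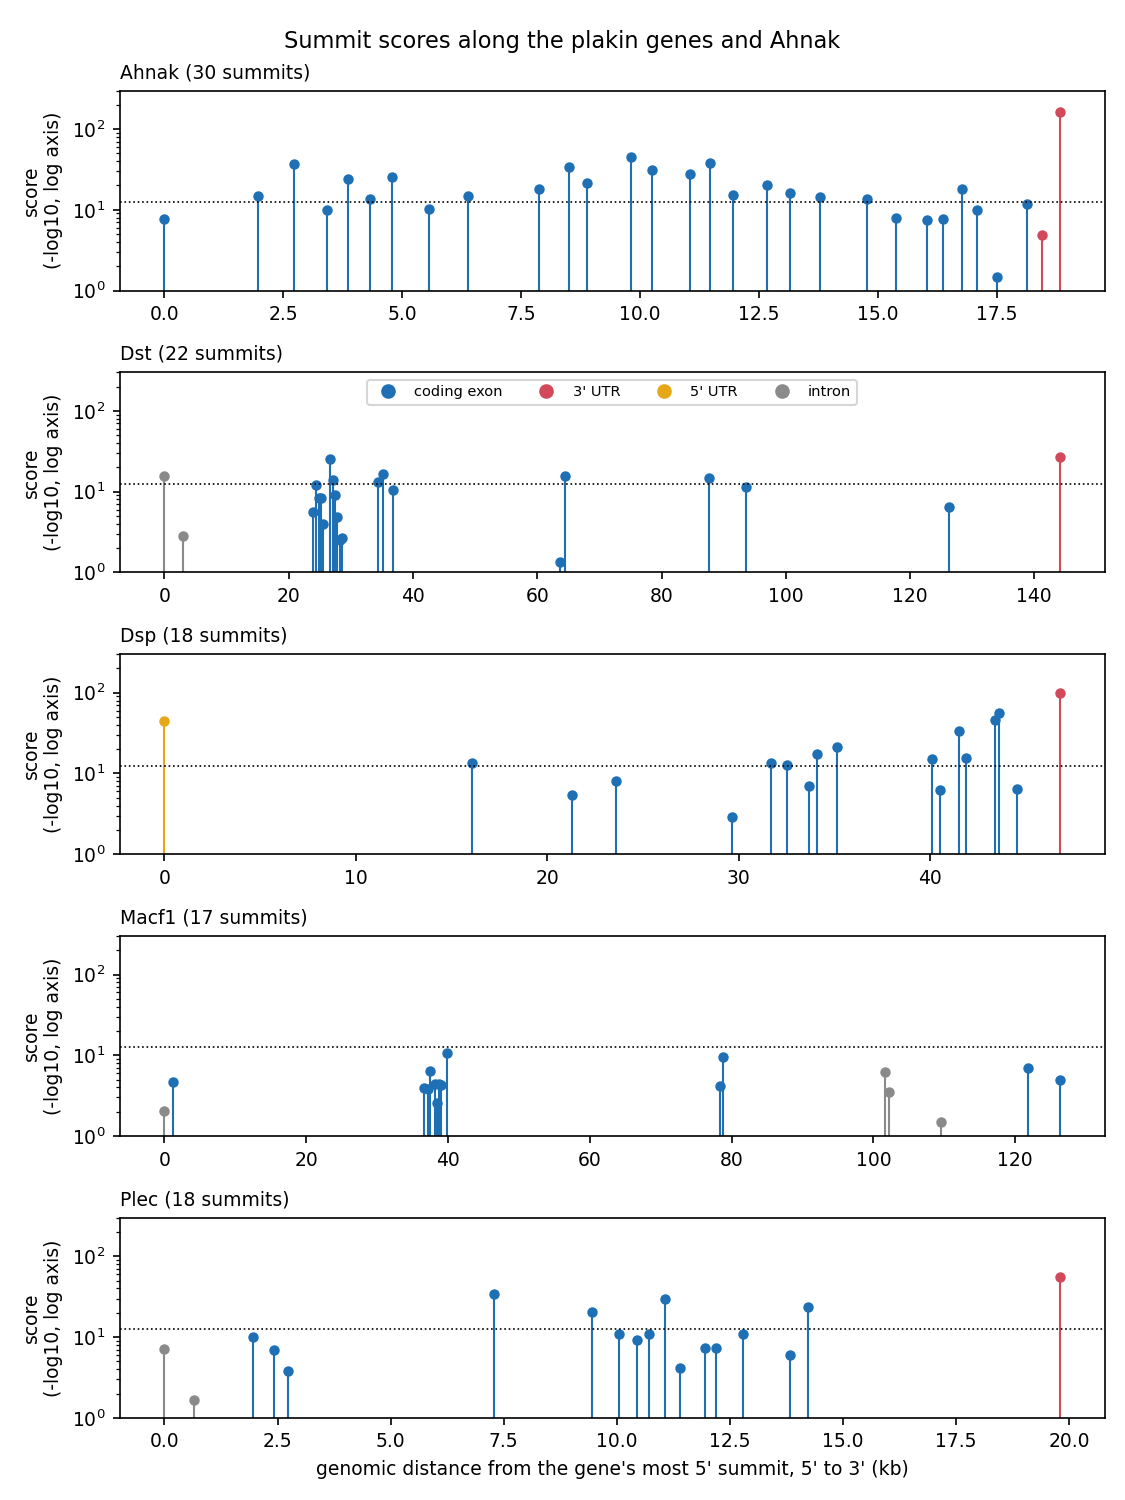
Score of each summit (-log10 p or q, log axis) against its genomic distance in kb, 5' to 3', past the most 5' summit of its gene, with 1 panel per gene and a dotted line at 12.5, the median of the whole table. Ahnak is covered along its single large exon, Dst and Macf1 show a cluster at exon 36, and the last point of Ahnak, Dst, Dsp and Plec is a 3' UTR summit that is the highest of its gene.

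Taken over the 5 genes, 73 of 97 exonic summits (75.3%, 65.5 to 83.5) lay in the 11 exons of 1000 bases or more, which hold 56.4% of the transcripts' bases. The other 247 exons held 24 summits, 1 in each of 24 exons. The genes differed. In Dst long exons held 14 of 20 exonic summits (45.7% to 88.1%) and 34.8% of bases, and in Macf1 10 of 13 (46.2% to 94.96%) and 35.5% of bases. In Dsp they held 8 of 18 (21.5% to 69.2%) and 64.1% of bases. Plec had 12 of 16 (47.6% to 92.7%) and 69.8% of bases, and Ahnak 29 of 30 (82.8% to 99.9%) and 94.9% of bases. The intervals of Dst and Macf1 lay wholly above the share of bases, and those of Dsp, Plec and Ahnak held it. All of these intervals take summits as independent, although many summits in long exons shared a peak. They are therefore too narrow to set the genes apart, and the contrast was not tested. Exon 36 alone gave 11 of the 14 summits in Dst and 8 of the 10 in Macf1. That exon was singled out for having most summits, so this is no separate result about long exons. The transcripts were also chosen as ones whose exons could hold the summits.

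**Figure D4:**
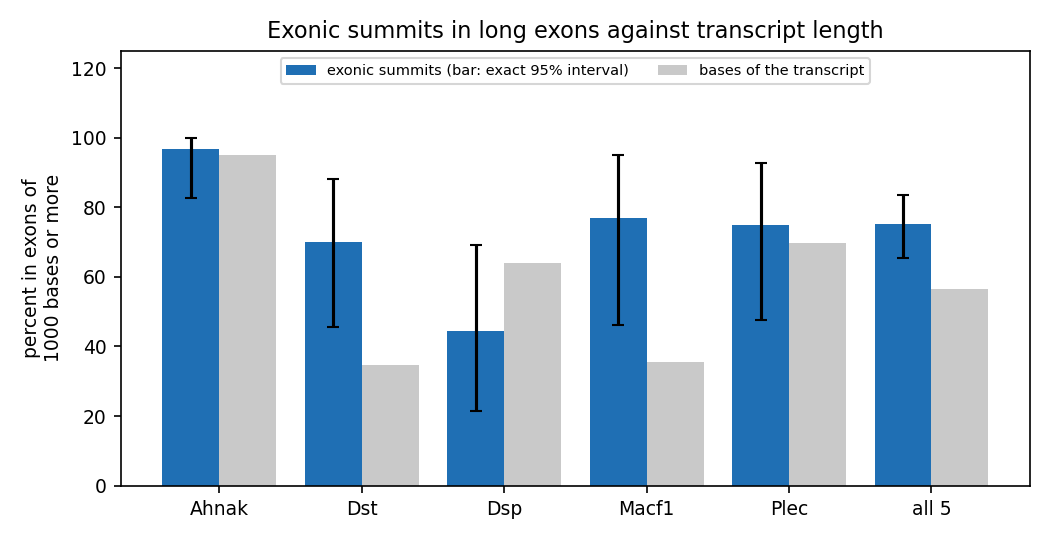
Percent of exonic summits (blue, with exact 95% intervals) and percent of transcript bases (grey) that lie in exons of 1000 bases or more, for each gene and for all 5. The blue bar stands above the grey one with its whole interval in Dst and Macf1, while in Dsp it is lower but its interval reaches past the grey bar. The intervals take summits of the same peak as independent.

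Distances were taken between neighbouring summits of the same exon or UTR. The median of 60 such distances was 466.5 bases, with quartiles of 385 and 657 and a range of 225 to 1490. By gene the median was 612 in Ahnak, 456.5 in Macf1, 430.0 in Dst, 411 in Dsp and 401 in Plec. Over the other genes the median of 319 distances was 410.0 bases, and it was the same without Ttn. The 4 plakins thus had medians between 401 and 456.5 bases, near that of the other genes, while that of Ahnak was wider. The ranges overlapped, and the difference was not tested.

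**Figure D5:**
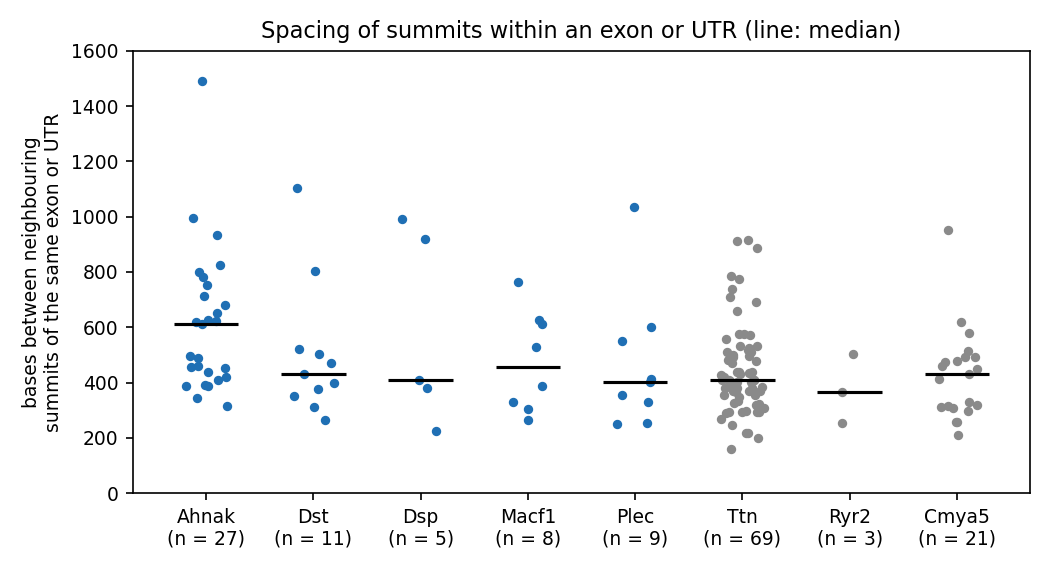
Bases between neighbouring summits of the same exon or UTR, 1 point per pair, with a line at the median and the number of pairs under each gene. Blue points are the plakins and Ahnak, with medians of 401 to 612 bases, and grey points are Ttn, Ryr2 and Cmya5, with medians of 410.0, 365.0 and 432 bases.

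The most 3' summit was the highest of its gene in 4 of the 5. It scored 165 in Ahnak against 44.9 for the next highest, 98.7 in Dsp against 56.3, 55.4 in Plec against 33.9, and 27.0 in Dst against 25.5. All 4 lay in the 3' UTR. Macf1 had no 3' UTR summit, and its most 3' one, in exon 70 with 4.88, ranked 6 of 17. In 3 genes the 3' UTR summit lay a short way before the RefSeq end of the gene on GRCm38, 253 bases in Dsp, 200 bases in Plec and 276 bases in Dst. For Ahnak the RefSeq gene ran on for 57946 bases past the summit, and the reason was not tested. The 3' UTR of the Ahnak transcript used here is only 875 bases long. A summit in that UTR is thus near the transcript's end, and the RefSeq bound does not measure that distance. A highest summit in the 3' UTR was common in the table. Among all 107 genes with a 3' UTR summit and another one elsewhere, 74.8% had their highest there, and among the 103 outside these genes 76 did (73.8%, 64.2 to 82.0). The 4 of 4 here are near that background.

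Among other genes with many summits, 5 were set beside these, namely Ttn with 235, the ryanodine receptor Ryr2 with 58, the muscle scaffold Cmya5 with 25, and Myh6 and Pde4dip with 22 each. Dync1h1 also had 22 and was left out because ties went to the gene with the higher top score. The share of summits in the single coding exon with most of them was 90.0% in Ahnak, 50.0% in Dst, 47.1% in Macf1, 44.4% in Plec and 22.2% in Dsp. It was 88.0% in Cmya5 (68.8 to 97.5), 15.7% in Ttn, 5.17% in Ryr2, and 4.55% in Myh6 and Pde4dip. By this measure Cmya5, with 22 of 25 summits in exon 2, was closest to Ahnak, and Ttn was closest to Dsp. The intervals of each pair overlapped. Only 17 of the 25 Cmya5 summits and 123 of the 235 Ttn summits lay in exactly 1 gene, and the others overlapped another gene too. All summits of Ryr2, Myh6 and Pde4dip lay in exactly 1 gene.

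Of 65 relatives and partners of these genes in 7 lists, 11 had a summit (16.9%, 8.76 to 28.3), beside 4.22% of all protein-coding genes. The lists were chosen with the table known, so nothing is read from that difference. Among the 11, the median of the strongest scores was 14.7, against 14.1 over all 922 named genes with a summit. The lists were chosen for function and not for expression in the heart. None of 5 plakin and AHNAK relatives had a summit (Ppl, Evpl, Eppk1, Ahnak2 and Prx, the last a small relative of AHNAK in Schwann cells). Of 11 desmosome genes 1 did, Pkp4 with 18.8, while plakoglobin Jup, Pkp1, Pkp2 and Pkp3 had none. Of 12 genes for intermediate filaments and nuclear envelope links, desmin (Des) had 2 summits with a highest score of 60.8, and Vim, Krt8, Krt18 and Krt19 had none.

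Of 12 spectrin repeat genes, 3 had summits, namely Actn2, the Z-disc actinin, with 9 and a highest score of 70.3, Sptbn1 with 9 and 38.2, and Sptb with 6 and 14.7. Sptan1, Sptbn4 and dystrophin Dmd had none, although Dmd encodes a giant with spectrin repeats like those of the spectraplakins. Microtubule partners had 4 of 12, led by Map4 with 6 summits and 39.5, followed by Clasp1 at 8.59, Camsap1 at 5.41 and Clip1 at 4.28, and the end-binding genes Mapre1, Mapre2 and Mapre3 and Clasp2 had none. Partners of AHNAK had 2 of 7, dysferlin Dysf at 11.3 and the L-type channel gene Cacna1c at 9.25, and S100a10, Anxa2, Cacnb2 and Myof had none. None of 6 integrin and hemidesmosome genes had one (Itgb4, Itga6, Itgb1 and Itga7 among them).

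The table as a whole held 1600 peaks, of which 217 had more than 1 summit, and scores up to 4922. Heart muscle markers had a summit in 5 of 8 cases (Myh6, Ryr2, Actn2, Atp2a2 and Tnni3, but not Tnnt2, Myl2 or Pln). Markers of other heart cells had 2 of 6 for endothelium (Eng at 20.2, Flt1 at 5.12), 2 of 6 for fibroblasts (Col1a1 at 24.9, Pdgfra at 4.10), 1 of 5 for smooth muscle and pericytes (Pdgfrb at 18.1) and 0 of 5 for macrophages. The plakins and Ahnak are also made outside heart muscle cells. Which cells their RNA came from was not tested, and fewer cells of a type cannot be told apart from less RNA per cell. The table gives no counts, so the depth behind each summit is unknown.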

How the data were processed

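Per the labels' protocols, messenger RNA was purified from 1 RIP and 1 Input fraction of about 60 mg of heart and sequenced as paired reads of 150 bases. Per the submitters' processing notes, fastp, BWA 0.7.12, MACS2 2.1.0 and HOMER were used. The design text gives BWA mem for alignment to the genome. That program does not splice reads across introns, and its effect on signal in short exons was not tested. How Input entered peak calling is not given in the sources used here. The authors deposited 1 table of summits (2269 lines, 1 per overlapped gene) whose score is a -log10 p-value or q-value.

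The notes name GRCm39, but 98.9% of 1913 gene lines lay inside the RefSeq gene on GRCm38, and 28.1% of 2140 lay inside the GENCODE M39 gene on GRCm39. For the 5 genes all 105 summits fitted GRCm38, and 69 also fell inside the wide GRCm39 bounds. Positions are GRCm38, counted from 1. GENCODE M39 gave strands, exon lengths and transcript sequence. For each gene the longest coding transcript was taken whose numbered exons could hold the table's summits (1 compatible transcript each, 2 for Plec). Shares have exact (Clopper-Pearson) 95% intervals for counting error only, which take the counted summits or genes as independent.

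The genes and lists were chosen with earlier results of these data known. All 5 genes, list genes with a summit (at most 6 per list), up to 4 without one, and the 5 other genes with most summits (ties by highest score) were named. Relatives without a summit were named in full. Counting functions were tested on simulated data. Python 3.11.15, pandas 2.3.3, numpy 2.4.6 and scipy 1.17.1 were used. Alternatives raised the score threshold, merged summits within 200 bases, kept summits in exactly 1 gene or the strongest per peak, and assigned genes by the closest transcription start. Leaving out each gene in turn was added after seeing the data.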

Additional observations from a re-analysis of the deposited data

How the results depend on the processing

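Keeping summits in exactly 1 gene left all 10 results within 1.5 times or within the interval of the reported value. It removed only 1 of the 105 summits, so for the 5 genes it says little about stability. Merging summits within 200 bases could change none of the values for the 5 genes, whose closest summits were 225 bases apart, nor remove a list gene, so it says nothing about stability. Leaving out each gene in turn was chosen after seeing the data. The coding exon share was then 84.0% to 88.6%, the median score 8.30 to 12.9 and the median spacing 411 to 490 bases. All of these stayed within 1.5 times or within the interval of the reported value. At or above the median score, Dst had 8 summits, Plec 5 and Macf1 0, the median score was 20.6, the median spacing 626 bases, and 6 list genes remained with a summit. At or above the upper quartile, Ahnak had 6, Dsp 5, Plec 3, and Dst and Macf1 0, so that 3 of the 5 genes had one. The coding exon share was then 71.4%, the median score 41.1, the spacing 1209 bases and the list genes 4. A higher threshold leaves fewer and higher summits by construction. With the strongest summit per peak, which removes the others by construction, Ahnak had 7, Dst 14 and Plec 8, with 75.5% in coding exons and a spacing of 1446 bases. By the closest transcription start, Dst and Macf1 had 0, Dsp 1, Plec 14 and Ahnak 30. The genes with a summit were 3, the median score was 13.6 and the list genes 3. By construction this setting gives each summit to the gene whose start is closest, even from inside another gene. Which genes took these summits was not tested. No paired analysis was possible because each group had 1 library. Without counts, depth could not be assessed.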

Other observations

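Scores along the coding part of the last Ahnak exon were highest in the middle. The 9 summits between 9008654 and 9013320 had a median of 28.0 (range 15.1 to 44.9). The 9 before them had 14.8 (9.90 to 36.9) and the 9 after them 9.86 (1.47 to 18.0). The split into equal groups was chosen after the values were seen, and the ranges overlap.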
